A study of Homo sapiens with 8 samples.

Results

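The 9 genes described here encode ATP-binding cassette (ABC) transporters, membrane proteins that use ATP to move molecules out of the cell or across its inner membranes. They were chosen by symbol, and all 9 were found among the 60664 genes of the deposited table. RNA was sequenced from parental THP-1, an established line of human monocytic leukemia, and from a DAC-resistant line made from it. DAC (decitabine) is a cytidine analogue and hypomethylating agent that lowers DNA methylation once it is built into DNA. The 4 groups were parental cells with DMSO, parental cells with 1 µM DAC, DAC-resistant cells with DMSO and DAC-resistant cells with 1 µM DAC, each treated for 6 days and each with 2 replicates. The labels give the genotype of all groups as WT. The DAC-resistant line had been selected from THP-1 by repeated pulses of DAC itself over months and was kept in drug-free medium before the experiment. The sources used here do not say whether this line is a clone. All differences between DAC-resistant and parental cells are therefore differences between 1 pair of cell lines.

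Values are FPKM, which count the reads of a gene against its length and the library total, and the totals by which the authors scaled lay between 27480502 and 31916835 reads. For all 9 genes the values were whole numbers of reads once multiplied by gene length and total, so the reads behind each value are given for the low genes. All 10 monocytic markers examined, among them CD33, LYZ, CSF1R and SPI1, were above 1 FPKM in at least 1 library. Their summed level was 261 to 266 FPKM in parental cells with DMSO and 382 to 391 FPKM with DAC. In DAC-resistant cells it was 194 to 208 FPKM with DMSO and 205 to 211 FPKM with DAC. Of these 10 markers 9 rose with DAC in parental cells, 7 fell in DAC-resistant against parental cells with DMSO and 9 fell with DAC, beside 57.7%, 57.5% and 67.0% of the genes past a filter on low values called in those comparisons in either direction. Their part in the results below was not tested. T cell markers summed to at most 0.549 FPKM and B cell markers to at most 4.27 FPKM. Erythroid markers summed to at most 2.97 FPKM, almost all of it HBB in replicate 1 of DAC-resistant cells with DMSO. The fibroblast and epithelial list, in which COL1A1 was the main gene, lay at 0.641 to 0.745 FPKM in parental cells with DMSO and between 4.39 and 6.77 FPKM in all other libraries. In that list EPCAM was at most 0.0898 FPKM, while KRT18 (0.427 and 0.273 FPKM) and COL3A1 (1.65 and 1.56 FPKM) stood out in the parental libraries with DAC and were at or near 0 in the other 6. Plasma cell markers, mainly JCHAIN and SDC1, lay at 2.31 to 2.47 and between 6.19 and 7.54 FPKM in the same sets of libraries. In bulk RNA, fewer cells that express a gene and less RNA per cell cannot be told apart.

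ABC transporters bind ATP at paired intracellular domains and use its hydrolysis to change the shape of the membrane part that carries the substrate. ABCB1 (P-glycoprotein) and ABCG2 (breast cancer resistance protein) export many hydrophobic drugs and are known for multidrug resistance. The ABCC members, also called multidrug resistance proteins, export organic anions such as glutathione, glucuronide and sulfate conjugates, and ABCC4 and ABCC5 also carry cyclic nucleotides and nucleotide analogues. ABCA1 passes cholesterol and phospholipids to lipid-poor apolipoprotein A-I and ABCG1 to high-density lipoprotein, and in monocytes and macrophages both are switched on by the liver X receptors (LXR) with their partners, the retinoid X receptors.

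ABCC1 and ABCC4 were the most abundant members in every group. Of the summed FPKM of the 9 genes, they made up 67.1% and 67.2% in the parental libraries with DMSO, 77.2% and 77.4% in those with DAC, and between 83.4% and 85.9% in the 4 DAC-resistant libraries. The sum itself was 14.4 and 15.4 FPKM in parental libraries with DMSO, 30.6 and 31.3 FPKM in those with DAC, and 16.0 to 17.2 FPKM in DAC-resistant ones. The order in parental cells with DMSO was ABCC1, ABCC4, ABCA1, ABCC5, ABCC2, ABCG1, ABCB1, ABCC3 and ABCG2. In DAC-resistant cells with either treatment ABCC4 stood before ABCC1 and ABCC5 before ABCA1. The ranges of the replicates of neighbours in these orders did not overlap, except for ABCG1, ABCC3 and ABCG2 in DAC-resistant cells with DAC, which all lay at 3 reads or fewer. ABCC3 and ABCG2 in DAC-resistant cells with DMSO, at 1 and 0 reads in each library, cannot be separated at this depth either. With DMSO the gap between ABCC4 (7.35 ± 0.64, SD, n = 2) and ABCC1 (6.66 FPKM in both replicates) was about the size of the spread of ABCC4.

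**Figure D1:**
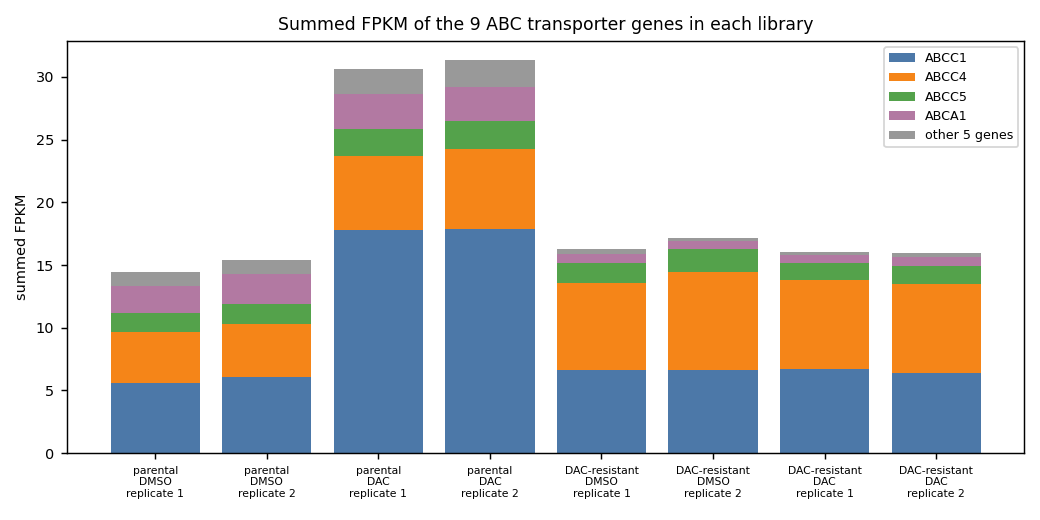
Summed FPKM of the 9 transporter genes in each of the 8 libraries, stacked by gene. The bars of parental cells with DAC reach 30.6 and 31.3 FPKM, mainly through ABCC1, and the 4 DAC-resistant bars stay between 16.0 and 17.2 FPKM.

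The 9 genes lie on 9 chromosomes (hg38, GENCODE gene bounds) and their exons overlap no other annotated gene. ABCC1 is at chr16:15949138-16143257 and ABCC3 at chr17:50634777-50692253, both on the plus strand, and ABCG1 is at chr21:42199689-42297244 on the plus strand. RefSeq start windows, 300 bases long with 250 of them before the start, were at hand for 6 of the 9 genes in 11 windows (GRCh38.p14), and not for ABCC1, ABCC3 and ABCG1. The windows are shown for the genes with the largest differences on the log2(FPKM + 1) scale between the cell lines with DMSO, ABCA1 and ABCC2, which were lower in DAC-resistant cells, and ABCC4, which was higher. Each is written 5′ to 3′ on the strand of its gene, with CpG dinucleotides, the sites of DNA methylation, in capitals.
ABCA1 (chr9:104928106-104928405, minus strand): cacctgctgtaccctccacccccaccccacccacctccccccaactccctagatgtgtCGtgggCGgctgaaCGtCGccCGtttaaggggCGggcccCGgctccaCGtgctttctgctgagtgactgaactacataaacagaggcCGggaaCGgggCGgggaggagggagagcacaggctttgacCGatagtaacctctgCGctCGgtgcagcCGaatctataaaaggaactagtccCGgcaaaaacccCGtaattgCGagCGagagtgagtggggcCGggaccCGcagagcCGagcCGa
ABCC2 (chr10:99782390-99782689, plus strand): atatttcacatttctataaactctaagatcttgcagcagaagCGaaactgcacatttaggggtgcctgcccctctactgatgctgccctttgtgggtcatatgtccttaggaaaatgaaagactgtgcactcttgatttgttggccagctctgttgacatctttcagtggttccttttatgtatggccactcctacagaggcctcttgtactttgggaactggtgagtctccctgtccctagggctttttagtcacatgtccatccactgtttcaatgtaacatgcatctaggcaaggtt
ABCC4 (chr13:95301402-95301701, minus strand): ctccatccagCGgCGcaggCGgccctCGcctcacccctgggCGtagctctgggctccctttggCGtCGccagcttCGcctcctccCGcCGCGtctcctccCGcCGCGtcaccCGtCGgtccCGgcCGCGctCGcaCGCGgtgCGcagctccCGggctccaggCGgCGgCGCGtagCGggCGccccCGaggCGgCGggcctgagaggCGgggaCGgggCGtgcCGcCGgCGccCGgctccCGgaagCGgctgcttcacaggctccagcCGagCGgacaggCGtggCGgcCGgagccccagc

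The 3 windows differed widely in CpG content. ABCC4 held 47 CpGs, more than 97.6% of the 35116 windows in the table, ABCA1 held 23 and ABCC2 held 1, beside a median of 14 over all windows. ABCC5 held 26 CpGs. ABCB1 has a downstream start with 16 CpGs and an upstream start with 1, and the 5 listed starts of ABCG2, several of which overlap, held between 3 and 35. DNA methylation was not measured in these files, so the CpG counts describe the sequence and not its state. ABCA1 and ABCC2, which fell in the same comparisons, thus differed in CpG density.

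Motifs of 3 regulators named in the gene lists below were searched on both strands of these windows, and a match is a description of letters, not a site in use. The LXR element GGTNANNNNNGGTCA was in 0.239% of all windows and, among the 11 windows, in that of ABCA1, on the strand opposite to the gene at positions -69 to -55 from the start. Read in the direction of the gene, with the element in capitals, it is shown because ABCA1 is compared with other LXR targets below.
ABCA1 element: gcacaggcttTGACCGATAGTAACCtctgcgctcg

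The core of the antioxidant response element, TGACNNNGC, was in 13.3% of all windows, and in those of ABCC4 (as TGACGCGGC on the opposite strand) and of 1 ABCG2 start. The core bound by the aryl hydrocarbon receptor, GCGTG, was in 36.5% of all windows and occurred in those of ABCC4, ABCC5, the downstream start of ABCB1 and 3 starts of ABCG2.

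The first comparison asks which transporters responded to DAC in parental cells. DAC raised 6 of the 9 genes, ABCC1, ABCC3, ABCC4, ABCC5, ABCG2 and ABCG1, at an adjusted p under 0.05 (limma on log2(FPKM + 1), adjusted over all genes), and lowered none. The background was high, since 57.7% of the 14899 genes that reached 1 FPKM in 2 or more libraries and 26.1% of the 39592 genes above 0 anywhere were called in this comparison, so a call was common in this comparison and the count is not particular to the transporters. ABCB1, ABCC3, ABCG2 and ABCG1 were under the 1 FPKM filter and are taken from the fit of all 39592 genes. Of the others, ABCC2 passed the filter only through the parental libraries with DAC and ABCA1 only through the parental libraries. With the stricter thresholds of the study's volcano plots (log2 fold change of 1 or more in either direction, unadjusted p no higher than 0.01), applied to log2(FPKM + 1), ABCC1 alone was called, beside 9.31% of the genes tested. The added 1 FPKM shrinks the fold of a low gene, and ABCC3, whose log2 change was 2.46 with a pseudocount of 0.1 FPKM and 5.45 with voom, a limma fit of the recovered reads, missed the fold threshold only on this scale.

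ABCC1, the exporter of glutathione conjugates and leukotriene C4, had the largest change on the log2(FPKM + 1) scale, though ABCC3, described next, changed by a larger ratio. It stood at 5.60 and 6.08 FPKM in parental cells with DMSO and at 17.8 and 17.9 FPKM with DAC, a 3.05-fold difference of the means. Both DAC libraries were far above both DMSO libraries, by more than any spread between replicates (log2 fold change 1.46, SE 0.05, adjusted p = 1.8e-06). ABCC4 rose from 4.08 and 4.24 to 5.90 and 6.36 FPKM, 1.47-fold (0.47, SE 0.07, adjusted p = 0.00107). ABCC5, a cyclic nucleotide and nucleotide analogue exporter, rose from 1.51 and 1.59 to 2.14 and 2.26 FPKM, 1.42-fold (0.33, SE 0.08, adjusted p = 0.0111). The call for ABCC5 was lost without replicate 1 of parental cells with DMSO, at an adjusted p of 0.0556.

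ABCC3, a basolateral exporter of bile acids and glucuronides best known from liver and gut, was close to silent in parental cells with DMSO, at 8 and 1 reads (0.0262 and 0.00343 FPKM). With DAC it had 156 and 125 reads (0.590 and 0.473 FPKM). Per scaled read this was 35.2-fold more, with an exact 95% interval of 18.3 to 77.9 that covers counting error only. On the log2(FPKM + 1) scale, which understates the change of a low gene, it rose by 0.59 (SE 0.05, adjusted p = 5.1e-04). ABCG1 rose from 26 reads in each DMSO library to 43 and 50 reads, 2.02-fold with an exact interval of 1.42 to 2.89 (0.17, SE 0.03, adjusted p = 0.02). The ABCG1 call did not hold with voom (adjusted p = 0.0876), a pseudocount of 0.1 FPKM (0.126), TPM (0.0581), quantile normalization (0.496), only the libraries compared (0.0921) or without replicate 1 of parental cells with DMSO (0.0545).

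ABCG2 had 0 reads in 6 libraries and 9 and 5 reads in the parental libraries with DAC. Against a floor of 3 reads over the group it was at least 5.27-fold higher with DAC than with DMSO, and in the 6 libraries at 0 reads a limit of 3 reads allows a level of up to 0.0178 FPKM. Its rise by 0.06 on the log2 scale (SE 0.02, adjusted p = 0.0325) was not called without either replicate of parental cells with DMSO (0.077 and 0.0773), with quantile normalization (0.287), with only the libraries compared (0.113) or with the replicate number as a block (0.0582). ABCB1 had 6 and 20 reads with DMSO and 24 and 13 with DAC, so that its groups overlapped and no change was detectable at this depth (ratio 1.61, exact interval 0.947 to 2.76). ABCC2, the canalicular anion exporter, was at 0.885 and 0.833 FPKM with DMSO and 1.02 and 1.23 with DAC, and did not pass the test (0.19, SE 0.11, adjusted p = 0.202). ABCA1 was at 2.17 and 2.37 with DMSO and 2.77 and 2.70 FPKM with DAC, which missed the threshold (0.19, SE 0.08, adjusted p = 0.0843), though voom on the recovered reads called it (0.27, adjusted p = 0.0149).

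**Figure D2:**
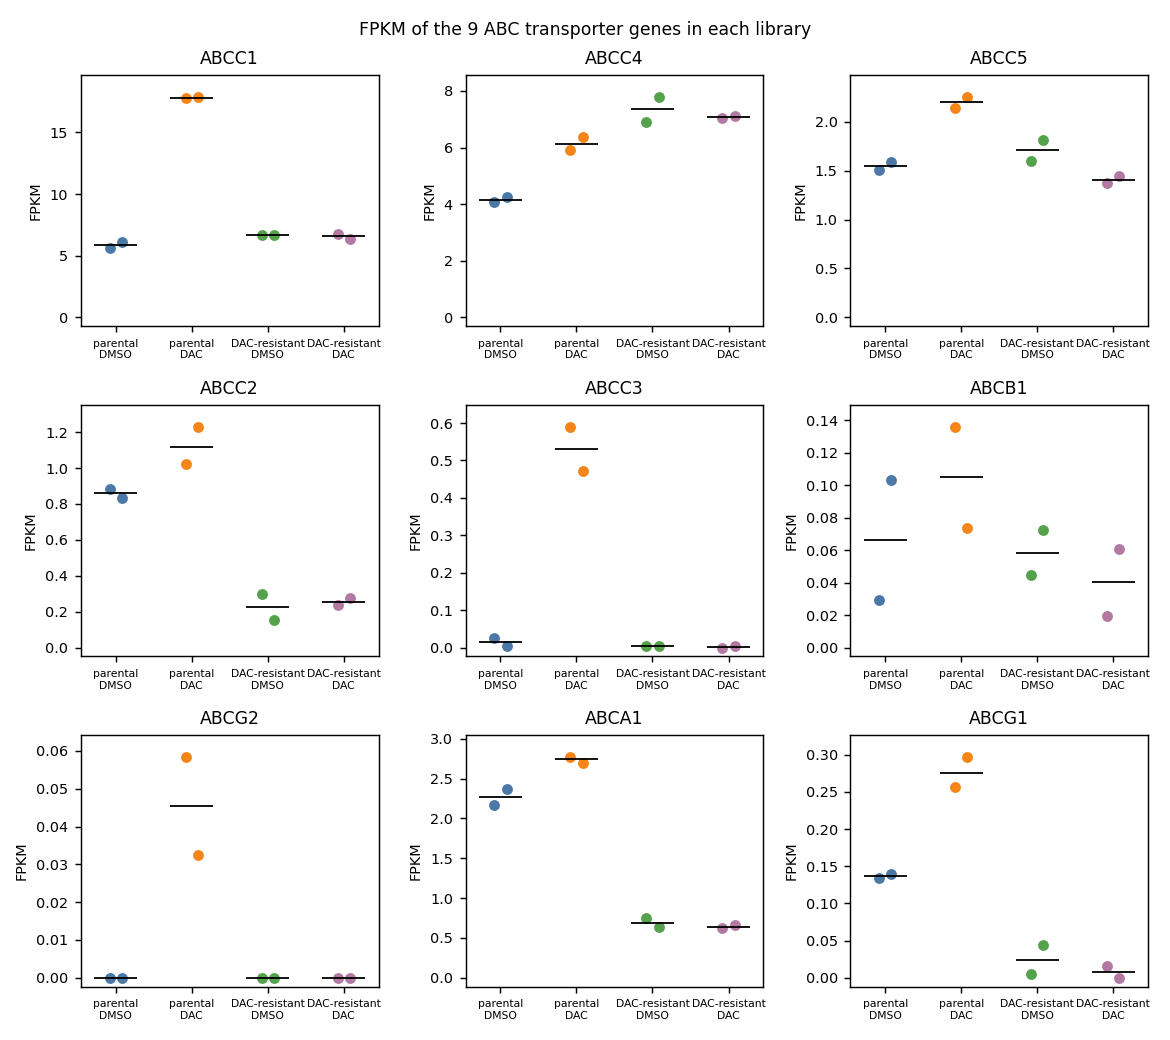
FPKM of each of the 9 genes in the 8 libraries, with a point per replicate and a bar at the mean of each group. The scales differ between panels, and the ABCG2, ABCB1 and ABCG1 panels rest on 50 reads or fewer per library. The ABCC1 panel shows parental cells with DAC at 17.8 and 17.9 FPKM and the other 6 libraries at 5.60 to 6.73 FPKM.

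The second comparison asks the same of DAC-resistant cells. DAC changed 0 of the 9 genes there by limma, and 0 had an unadjusted p under 0.05. Voom, which did not test ABCG2, called none of the other members. The background was 11.2% of the genes past the filter, 2.10% of all genes above 0 and 0.235% at the stricter thresholds. ABCC1 was at 6.66 FPKM in both libraries with DMSO and at 6.73 and 6.39 FPKM with DAC, and the 95% interval of its log2 change ran from -0.14 to 0.10. ABCC4 was at 6.90 and 7.80 and then at 7.05 and 7.12 FPKM, with an interval of -0.20 to 0.11. ABCC5 came nearest to the threshold, at 1.60 and 1.82 FPKM with DMSO and 1.38 and 1.45 with DAC, without overlap of the replicates (log2 fold change -0.17, interval -0.35 to 0.02, unadjusted p = 0.0749 and adjusted p = 0.238 from limma). ABCA1 was at 0.751 and 0.633 FPKM with DMSO and 0.619 and 0.662 with DAC, an interval of -0.24 to 0.15.

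The low genes gave little signal in DAC-resistant cells. ABCC3 had 1 and 1 reads with DMSO and 0 and 1 with DAC, and ABCG2 had 0 in all 4 libraries, so that no fold can be given for either. ABCG1 had 1 and 8 reads with DMSO and 3 and 0 with DAC, a ratio of 0.328 with an exact interval of 0.0572 to 1.32. ABCB1 had 9 and 14 reads with DMSO and 4 and 12 with DAC. ABCC2 had 74 and 36 reads and then 59 and 66, which overlapped.

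**Figure D3:**
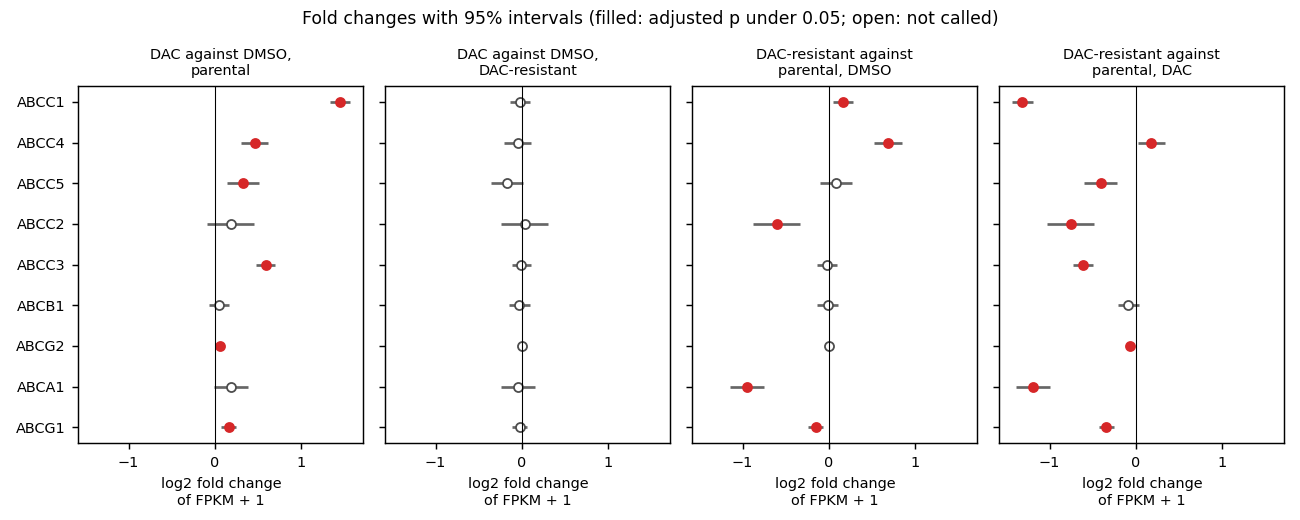
Log2 fold changes of FPKM + 1 (x axis) with 95% intervals for the 9 genes in 4 comparisons, with filled points where the adjusted p was under 0.05. DAC moved 6 genes in the parental line and 0 in the DAC-resistant line, beside 57.7% and 11.2% of all genes past the filter, and ABCA1 and ABCC2 were lower in DAC-resistant cells with either treatment.

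The difference between the DAC effects, resistant minus parental, was itself tested. It was past the threshold for 4 genes, beside a background of 49.3% of the genes past the filter, 19.4% of all genes above 0 and 10.6% at the stricter thresholds, where on log2(FPKM + 1) ABCC1 alone was called. The difference was -1.48 for ABCC1 (SE 0.07, adjusted p = 1.3e-05), with a change of 1.46 in parental and -0.02 in DAC-resistant cells. It was -0.60 for ABCC3 (SE 0.06, adjusted p = 0.00257), -0.51 for ABCC4 (SE 0.09, adjusted p = 0.00438) and -0.49 for ABCC5 (SE 0.11, adjusted p = 0.0105). For ABCG1 (-0.19, adjusted p = 0.0518) and ABCG2 (-0.06, adjusted p = 0.114) it did not pass, and for ABCA1 it was -0.24 with an interval of -0.52 to 0.04. The parental libraries with DMSO and DAC enter this difference and also the comparison of DAC with DMSO in parental cells.

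The third comparison sets DAC-resistant against parental cells with DMSO alone. ABCC4 and ABCC1 were higher, and ABCA1, ABCC2 and ABCG1 were lower, 5 of 9 genes called beside a background of 57.5% past the filter and 21.5% of all genes above 0. None of the 9 passed the stricter thresholds on log2(FPKM + 1), which called 8.73% of genes, and this rests on the scale, since the log2 changes of ABCA1 and ABCC2 were -1.58 and -1.59 with a pseudocount of 0.1 FPKM and -1.71 and -1.99 with voom. ABCC4 was 6.90 and 7.80 FPKM in DAC-resistant and 4.08 and 4.24 in parental cells, a 1.76-fold rise without overlap (0.69, SE 0.07, adjusted p = 1.7e-04). ABCC1 was 6.66 FPKM in both DAC-resistant libraries and 5.60 and 6.08 in parental cells, 1.14-fold (0.16, SE 0.05, adjusted p = 0.0266). That small ABCC1 difference lost its call in the fit of all genes (0.0504), without replicate 1 of parental cells with DMSO (0.131), without replicate 1 or 2 of DAC-resistant cells with DMSO (0.0873 and 0.0868), with quantile normalization (0.0646) and with only the libraries compared (0.0825).

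ABCA1, the cholesterol exporter, had the largest fall on the log2(FPKM + 1) scale, while the ratios of ABCC2 and ABCG1 below were larger. It went from 2.17 and 2.37 FPKM (780 and 814 reads) in parental to 0.751 and 0.633 FPKM (269 and 216 reads) in DAC-resistant cells. The parental mean was 3.27 times the DAC-resistant one, and the libraries were well apart (log2 fold change -0.95, SE 0.08, adjusted p = 1.1e-04). ABCC2 went from 0.885 and 0.833 to 0.299 and 0.153 FPKM, from 220 and 198 to 74 and 36 reads. The parental level was 3.77 times as high per scaled read (exact interval 3.05 to 4.70), and on the log2 scale the gene fell by 0.60 (SE 0.11, adjusted p = 0.00413). ABCG1 went from 26 and 26 reads to 1 and 8, with a parental level 5.74 times as high (exact interval 2.80 to 13.2). It fell by 0.15 on the log2(FPKM + 1) scale (SE 0.03, adjusted p = 0.0328), a call lost without replicate 1 or 2 of parental cells with DMSO (0.0697 and 0.0777), without replicate 1 of DAC-resistant cells with DMSO (0.107), without replicate 1 or 2 of DAC-resistant cells with DAC (0.0512 and 0.0521), with a pseudocount of 0.1 FPKM (0.0506), with quantile normalization (0.0684), with only the libraries compared (0.064) and with the replicate number as a block (0.0578). With voom on the reads ABCG1 fell by 2.91 (adjusted p = 0.0112).

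The other members did not pass in that comparison. ABCC5 was at 1.60 and 1.82 in DAC-resistant and at 1.51 and 1.59 FPKM in parental cells (0.09, interval -0.10 to 0.27). ABCB1 had 9 and 14 reads beside 6 and 20. ABCC3 had 1 and 1 reads beside 8 and 1, a ratio of 0.224 with an exact interval of 0.0235 to 1.08. ABCG2 was at 0 reads in all 4 libraries.

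With DAC in both lines, 8 of the 9 genes differed between DAC-resistant and parental cells, beside 67.0% of the genes past the filter and 31.6% of all genes above 0. The parental libraries with DAC also enter the comparison of DAC with DMSO in parental cells. Each log2 change here follows from that between the lines with DMSO and the difference of the DAC effects, so it is not a separate finding. At the stricter thresholds, on log2(FPKM + 1), ABCC1 and ABCA1 were called, beside 14.5% of genes. With voom the log2 changes of ABCC2, ABCC3 and ABCG1 were also over 1 in size, at -2.13, -7.53 and -5.32, as was that of ABCB1, at -1.48 with an adjusted p of 0.114. ABCC1 fell by 1.32 on the log2 scale (SE 0.05, adjusted p = 1.7e-06), with 6.73 and 6.39 FPKM in DAC-resistant beside 17.8 and 17.9 in parental cells. ABCA1 fell by 1.19 (SE 0.08, adjusted p = 2.6e-05), and its parental mean was 4.27 times as high. ABCC2 fell by 0.76 (adjusted p = 0.00112) and ABCC5 by 0.41 (adjusted p = 0.00341). ABCC3 had 281 reads over the parental libraries and 1 read over the DAC-resistant ones, and per scaled read the parental level was 320 times as high, with a lower bound of 56.9 from counting error. ABCG1 had 93 and 3 reads, a ratio of 35.3 with an exact interval of 11.7 to 174. ABCG2 was at least 5.31-fold lower in DAC-resistant cells against the floor of 3 reads, a call lost without replicate 1 or 2 of DAC-resistant cells with DAC (0.0744 and 0.0749), with quantile normalization (0.265) and with only the libraries compared (0.0965). ABCC4 was the exception in direction, at 7.05 and 7.12 beside 5.90 and 6.36 FPKM (0.18, SE 0.07, adjusted p = 0.0449). The ABCC4 call was lost in the fit of all genes (0.0847), without replicate 1 or 2 of parental cells with DMSO (0.0634 and 0.0636), without replicate 1 or 2 of parental cells with DAC (0.199 and 0.0584) and without replicate 1 or 2 of DAC-resistant cells with DAC (0.117 and 0.136). ABCB1 did not pass (adjusted p = 0.271), although its 4 and 12 reads lay below the 24 and 13 of parental cells.

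The members past the filter were compared with each other across the 8 libraries on log2(FPKM + 1), as a description over libraries that share 4 groups. ABCC2 and ABCA1 ran most closely together (Pearson r = 0.984, n = 8), followed by ABCC1 and ABCC5 (0.899), and ABCC4 and ABCA1 ran in opposite directions (-0.707). Among all genes past the filter, ABCC1 was most like TXNDC11, a thioredoxin domain protein (0.998), and MYO7A, an unconventional myosin (0.998). TXNDC11 was 9.55 and 10.1 FPKM in the parental libraries with DMSO and 17.2 and 17.8 FPKM in those with DAC. In the DAC-resistant ones it was 9.91 to 10.5 FPKM. MYO7A was 0.0392 and 0.0316 FPKM in the parental libraries with DMSO and 0.162 to 0.173 FPKM in the DAC-resistant ones. It passed the filter only through the parental libraries with DAC, at 2.64 and 2.81 FPKM, and its r rests mainly on that group. ABCC4 was most like FAM207A (0.993) and FHL3 (0.992), ABCC5 was most like the calcium sensor NCALD (0.996) and the LIM adaptor LDB1 (0.986), and ABCC2 was most like ENSG00000253821 and HIVEP3 (0.995 each). ABCA1 was most like the zinc finger gene ZC3H7B (0.999) and PTGS1 (0.998), the constitutive cyclooxygenase, which with DMSO was 13.4 and 14.2 FPKM in the parental and 1.73 and 1.44 FPKM in the DAC-resistant libraries.

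ABCA1 and ABCG1 are targets of the LXRs, so other LXR targets and the receptors were examined. For this and the lists below the background is as above, 57.7% of all genes past the filter called with DAC in parental cells and 57.5% between the lines with DMSO. Of 10 regulators, 3 rose and 6 fell in the first comparison and 5 rose and 2 fell in the second. RXRA, the common partner receptor, was 10.5 FPKM in parental and 28.7 FPKM in DAC-resistant cells with DMSO (1.37, adjusted p = 1.5e-06). PPARG rose too (1.23, adjusted p = 1.6e-05), as did PPARD (0.72, adjusted p = 7.3e-06). NR1H3, which encodes LXRα, fell by 0.34 (adjusted p = 0.00492) and the corepressor NCOR1 fell by 0.46 (adjusted p = 1.1e-04). With DAC in parental cells RXRA rose by 0.40 (adjusted p = 2.0e-04), while PPARD fell by 0.62 (adjusted p = 1.3e-05), PPARA fell by 0.41 (adjusted p = 9.3e-04) and NR1H3 fell by 0.38 (adjusted p = 0.00329).

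The LXR targets beside ABCA1 and ABCG1 did not move as one. In DAC-resistant against parental cells with DMSO, 6 of 13 tested rose and 5 fell, with a median log2 change of 0.05 beside 0.02 over all genes. APOE, an apolipoprotein that takes up exported cholesterol, went from 0.984 to 11.4 FPKM (2.65, adjusted p = 7.5e-06), and MYLIP (0.90, adjusted p = 6.9e-05) and LPL (0.80, adjusted p = 1.7e-04) rose as well. PLTP, the phospholipid transfer protein, fell by 1.04 (adjusted p = 2.2e-04), APOC1 fell by 0.94 (adjusted p = 0.00564) and SMPDL3A fell by 0.91 (adjusted p = 7.8e-04), changes of the size seen for ABCA1. With DAC in parental cells 5 rose and 3 fell. APOE (1.98, adjusted p = 2.4e-05) and LPL (0.72, adjusted p = 2.8e-04) rose, and the fatty acid synthesis genes SCD and FASN fell by 1.51 (adjusted p = 1.0e-07) and 1.03 (adjusted p = 2.2e-06).

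Of 6 tested genes of cholesterol uptake, storage and hydrolysis, 3 rose and 2 fell with DAC in parental cells. The scavenger receptor CD36 rose from 3.93 to 13.7 FPKM (1.58, adjusted p = 3.0e-06), and SCARB1, the receptor for high-density lipoprotein, fell by 0.25 (adjusted p = 0.00194). In DAC-resistant against parental cells with DMSO 3 rose and none fell, with SCARB1 at 0.53 (adjusted p = 6.4e-05) and SOAT1, which esterifies cholesterol for storage, at 0.11 (adjusted p = 0.0275).

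Receptors and targets of the xenobiotic response, which in liver govern ABCB1, ABCC2 and ABCG2, were also followed. Of 13 tested, 9 rose and 1 fell with DAC in parental cells, and 5 rose and 3 fell in DAC-resistant against parental cells with DMSO, beside 57.7% and 57.5% of all genes called. The aryl hydrocarbon receptor targets had the largest rises with DAC in parental cells, with CYP1B1 from 9.53 to 49.4 FPKM (2.26, adjusted p = 9.5e-08), AHRR at 1.11 (adjusted p = 1.4e-04) and TIPARP at 0.92 (adjusted p = 6.6e-06). CYP1B1 was also higher in DAC-resistant cells with DMSO, at 27.2 FPKM (1.42, adjusted p = 8.0e-07), as were AHRR (0.88, adjusted p = 4.1e-04) and NQO1, an antioxidant enzyme (0.80, adjusted p = 4.3e-05). The genes that fell there were GCLM, a subunit of the enzyme that starts glutathione synthesis, by 0.50 (adjusted p = 1.8e-04), YBX1, an RNA and DNA binding protein, by 0.35 (adjusted p = 4.4e-05) and NFE2L2, the transcription factor NRF2, by 0.21 (adjusted p = 0.00166). With DAC in parental cells YBX1 fell by 0.50 (adjusted p = 9.4e-06), and the comparisons share the parental libraries with DMSO.

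Among the whole ABC family of 48 genes, 25 were past the filter, and 20 of those are not among the 9. Of these 20, 7 rose and 5 fell with DAC in the parental line, and 1 rose and 1 fell with it in the DAC-resistant line. With DMSO, 10 of the 20 were higher and 4 lower in the DAC-resistant than in the parental line. These counts are near the shares of all genes called, 57.7%, 11.2% and 57.5%. TAP1, which pumps peptides for antigen presentation, rose from 7.88 to 40.6 FPKM with DAC in parental cells (2.23, adjusted p = 7.0e-07), a larger change than that of ABCC1. ABCF1, a translation factor without a membrane part, rose by 0.69 with DAC (adjusted p = 1.4e-04) and was 1.16 higher in DAC-resistant cells with DMSO (adjusted p = 1.5e-05), where TAP1 was 1.08 higher (adjusted p = 1.6e-05). ABCD2, a peroxisomal fatty acid transporter, fell by 0.51 (adjusted p = 0.00845) and ABCB10, of the mitochondrial inner membrane, fell by 0.44 (adjusted p = 3.1e-04) with DAC in parental cells. ABCC6, whose gene follows ABCC1 on chromosome 16, was 3.10 FPKM in parental and 0.963 FPKM in DAC-resistant cells with DMSO, a fall by 1.06 (adjusted p = 5.3e-04). It has near-identical pseudogene copies, so reads may be split between them.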

How the data were processed

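The authors trimmed the reads with cutadapt 1.9.1, aligned them to hg38 with HISAT2 2.1.0, handled them with SAMtools 1.6 and counted them with HTSeq 0.13.5 on Ensembl genes, and deposited FPKM values multiplied by 1000, which were divided by 1000 here. Whether counting used the strand is not given in the sources used here. With GENCODE v44 exon lengths 87.1% of gene values were whole reads within 0.02. Depth limits the precision of low genes, and exact 95% intervals and the floor of 3 reads cover counting error only. Over all genes with enough reads, replicates differed by more than counting error. The chi-square per gene between replicates was 4.01 to 4.26 over the groups. The exact intervals leave this spread out and are likely too narrow.

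Log2(FPKM + 1) values of the 14899 genes that reached 1 FPKM in 2 or more of 8 libraries were fitted with limma 3.58.1 (R 4.3.3) as 4 group means with a variance trend, with Benjamini-Hochberg adjustment over all genes. Members under the filter came from a fit of 39592 genes. Folds, intervals and sequence counts were made in Python. An exact permutation test of 2 against 2 libraries cannot go below 0.333 and was not used. The fit was tested on simulated data. The labels call the replicates biological, and p-values measure only the spread between them.

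The members and the gene lists (ABC family, LXR regulators and targets, cholesterol handling, xenobiotic response, glutathione conjugation, transporter partners and cell type markers) were chosen with earlier results of these data known, and some listed genes are not reported here. Named genes are all members, from each list up to 3 rises and 3 falls, by size, with non-overlapping replicates and an adjusted p below 0.05, and for each member past the filter the 2 genes with the highest Pearson r. Alternatives were another pseudocount, no filter, a mean of at least 5 FPKM, TPM, quantile normalization, a replicate block, only the libraries compared, the study's thresholds, leaving out each replicate and voom on the reads.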

Additional observations from a re-analysis of the deposited data

Results flagged for a closer look

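For 4 transporters DAC acted differently on the 2 cell lines, by a test of the difference itself (limma, adjusted over all genes), which also called 49.3% of all genes past the filter and 19.4% of all genes above 0. The effect in DAC-resistant cells minus that in parental cells was -1.48 for ABCC1, -0.60 for ABCC3, -0.51 for ABCC4 and -0.49 for ABCC5 on the log2(FPKM + 1) scale. In each case both parental libraries with DAC lay above both with DMSO. These libraries also enter the difference, so their separation is no further support for it. The same separation held for ABCC2, ABCA1, ABCG1 and ABCG2, whose difference did not pass. ABCC4 was higher in DAC-resistant than in parental cells already with DMSO, at a mean of 7.35 beside 4.16 FPKM, and ABCC1 was 6.66 beside 5.84 FPKM. Of the 10 monocytic markers 8 were below 0 and 1 above 0 in this difference at an adjusted p under 0.05, and their part in it was not tested.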

How the results depend on the processing

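DAC in DAC-resistant cells gave 0 calls in every setting. A filter on a mean of at least 5 FPKM left only ABCC1 and ABCC4 to test, and both were called in each of the other comparisons, which makes 2 against 6 (DAC, parental), 5 and 8 (between the lines with DMSO and with DAC) and 4 (the difference). The thresholds of the study left 1, 0, 2 and 1 in that order. With quantile normalization, and with only the libraries of the groups compared, 3 genes were called between the lines with DMSO. Leaving out each library gave 3 to 6 calls for DAC in the parental line, 0 in the DAC-resistant line, 3 to 5 and 6 to 8 between the cell lines with DMSO and with DAC, and 4 to 6 for the difference. The 3 came without replicate 1 of parental cells with DMSO or, between the lines, of DAC-resistant cells with DMSO too. The 6 for the difference added ABCG1 and ABCG2 without either parental library with DAC, where the lone library is taken to vary like the other groups.

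With the replicate block 5, 0, 4, 8 and 4 genes were called in the 5 comparisons, and ABCG2 with DAC in parental cells (0.0582) and ABCG1 between the lines with DMSO (0.0578) lost their calls. Over all genes past the filter, same-numbered replicates did not deviate together (r of -0.022 to 0.020). No pairing by number was seen, though a pairing that acts on few genes could be missed.

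No called change reversed. Uncalled ones did: with quantile normalization ABCB1 with DAC in parental cells (-0.0258) and between the lines with DMSO (0.0293) and DAC (0.0191), the ABCC2 difference (0.0165) and ABCC3 between the lines with DMSO (0.0015), with TPM ABCC1 with DAC in DAC-resistant cells (0.0074), and with voom ABCB1 between the lines with DMSO (0.0371). Without single libraries the DAC effect in DAC-resistant cells ran from -0.0540 to 0.0036 for ABCB1, -0.0511 to 0.0133 for ABCC1, -0.0496 to 0.123 for ABCC2, -0.122 to 0.0341 for ABCC4, -0.0945 to 0.0060 for ABCA1 and -0.0504 to 0.0035 for ABCG1, and ABCB1 between the lines with DMSO ran from -0.0592 to 0.0399. The cause was not tested. Quantile normalization moved the median over all genes from 0.06 to -0.05 for DAC in parental cells. Genes under about 50 reads cannot show small changes at this depth.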

Other observations

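Enzymes that make or conjugate glutathione, the co-substrate and cargo carrier of ABCC1 and ABCC2, split in direction. Of 14 tested, 3 rose and 6 fell with DAC in parental cells, 0 were called with DAC in DAC-resistant cells, and 4 rose and 8 fell in DAC-resistant against parental cells with DMSO, beside 57.7%, 11.2% and 57.5% of all genes called. GSTP1, the main glutathione transferase of many blood cells, was 57.5 FPKM in parental cells with DMSO, 72.9 with DAC, 31.5 in DAC-resistant cells with DMSO and 28.6 with DAC. It rose with DAC in parental cells (0.34, adjusted p = 0.00203 from limma), as did GSTO1 (0.49, adjusted p = 3.8e-04), and fell by 0.84 in DAC-resistant cells with DMSO (adjusted p = 3.2e-05). In the parental line the microsomal transferase MGST1 fell by 0.88 with DAC (adjusted p = 4.2e-05), and with DMSO it was lower in the DAC-resistant line (-0.60, adjusted p = 2.3e-04). The transferases GSTM3 and MGST3 and glutathione reductase GSR were higher in DAC-resistant cells with DMSO, by 0.70 (adjusted p = 2.0e-04), 0.55 (adjusted p = 5.1e-05) and 0.54 (adjusted p = 6.1e-05).

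Of 8 tested partners of the transporters, 4 rose and 2 fell with DAC in the parental line, and with DMSO 6 rose and none fell in the DAC-resistant against the parental line, against the same background. The scaffold genes NHERF2 and NHERF1, whose proteins tether membrane transporters, were higher there by 1.46 (adjusted p = 7.2e-05) and 0.71 (adjusted p = 6.1e-05), and RNF2 by 0.83 (adjusted p = 3.6e-05). SNTB1, a syntrophin that binds ABCA1, was 18.8 FPKM in parental cells with DMSO and 7.01 FPKM with DAC, a fall by 1.30 (adjusted p = 5.1e-06), while ABCA1 itself did not fall there.

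ABCG4, the brain cholesterol exporter most like ABCG1, was chosen after its values were seen. It was under the filter, at a mean of 0.051 FPKM in parental and 1.01 FPKM in DAC-resistant cells with DMSO (SD 0.05 and 0.20, n = 2), while ABCG1 was lower in DAC-resistant cells. These values are given as a description.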
